A study of Mus musculus with 4 samples.

Results

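Adrenergic receptors, the stimulatory G protein they couple to, the adenylyl cyclases that make cAMP and the kinase that cAMP activates form the chain by which catecholamines act on the heart. The genes described here were 9 members of that chain: the receptor genes Adrb1, Adra1a and Adra1b, the G protein gene Gnas, the cyclase genes Adcy5, Adcy6, Adcy7 and Adcy9, and the kinase gene Prkaca. They were chosen by name, and each was read on every probe set (a group of short probes summarised as 1 value) whose only listed gene symbol was the member's. This gave 20 of the 45037 probe sets tested, for 7 of the 9 genes. Adrb1 and Adra1a had no probe set listed under their symbols and were not analysed here.

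RNA labelled as from hearts of adult C57BL/6J mice was hybridised to 4 Affymetrix mouse arrays. Of these, 2 carry the label Rhau KO, with the genotype CAAG-ERT2-Cre;Rhau F/F, and the other 2 carry the label Control, with the genotype Rhau F/F. Both groups carried the floxed Rhau alleles and were injected with tamoxifen, 5 doses of 20 mg/kg/day, begun when they were 2 months old, with RNA taken 2 months later. The Cre in this line is driven by a ubiquitous promoter rather than a heart muscle promoter, and the Control mice lacked it, so an effect of the activated Cre itself cannot be told apart from that of the deletion. Rhau, now named Dhx36, encodes a helicase that unwinds G-quadruplex structures in RNA and DNA. The comparison asked how the adult heart transcriptome differed between the genotypes after induced deletion. No source says whether each array of a group came from its own animal. The p-values therefore reflect the spread between samples that may be technical replicates, and the number of arrays limits the precision.

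The arrays did not match their labels in every respect. Dhx36 itself read higher on both arrays labelled Rhau KO than on both labelled Control on its 3 probe sets (on 1424398_at, 627 and 537 against 156 and 172), and where these probes lie relative to the deleted exons was not analysed here. Groups were kept as labelled, and an exchange of the labels would turn every direction given below. The array labelled Control replicate 1 carried skeletal muscle transcripts. All 13 fast skeletal muscle markers read over 2-fold higher there than the mean log2 of the other 3 arrays. There, the summed intensity of these markers was 478270, against 827 to 1503 on the others. On the same array 9 of 12 ventricular markers read over 2-fold lower, with a summed intensity of 107300 against 458450 to 476180, and 6 of 7 endothelial markers did too. These readings go against the label heart for that array. The array labelled Control replicate 2 read 6 of 8 heat shock genes over 2-fold higher than the mean log2 of the other 3 arrays. Their summed intensity was 188470 there against 48640 to 75168. That mean includes Control replicate 1, and by the same measure 7 of 12 ventricular markers were over 2-fold higher on Control replicate 2. None of these markers was at 0 on any array. Every difference below is therefore given by label, as log2 intensity on Rhau KO minus log2 intensity on Control. Differences are with all arrays unless stated, and many are given again without Control replicate 1. In that second comparison Control replicate 2 stands alone and is assumed to vary as the Rhau KO pair does. In RNA from whole tissue, fewer cells of a type and less RNA per cell cannot be told apart.

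In heart muscle, norepinephrine and epinephrine bind beta1 receptors, which act through the stimulatory G protein alpha subunit to switch on membrane adenylyl cyclases, chiefly the types encoded by Adcy5 and Adcy6. The cAMP they make frees the catalytic subunit of protein kinase A, which phosphorylates calcium channels, phospholamban, ryanodine receptors and myofilament proteins, so that the heart beats faster, contracts more strongly and relaxes sooner. Alpha1 receptors couple instead to Gq and phospholipase C, a branch known for its part in heart muscle growth.

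Adcy9 was the member that differed between the labels on all of its probe sets. Its 4 probe sets read 2.81-fold to 3.71-fold lower on the arrays labelled Rhau KO, and no probe set of another member reached a 2-fold difference together with p under 0.05 before adjustment. Adcy6, Adra1b and the brighter pair of Adcy5 probe sets read lowest on Control replicate 1. The bright probe sets of Gnas and Prkaca differed by 0.15 or less on the log2 scale.

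**Figure D1:**
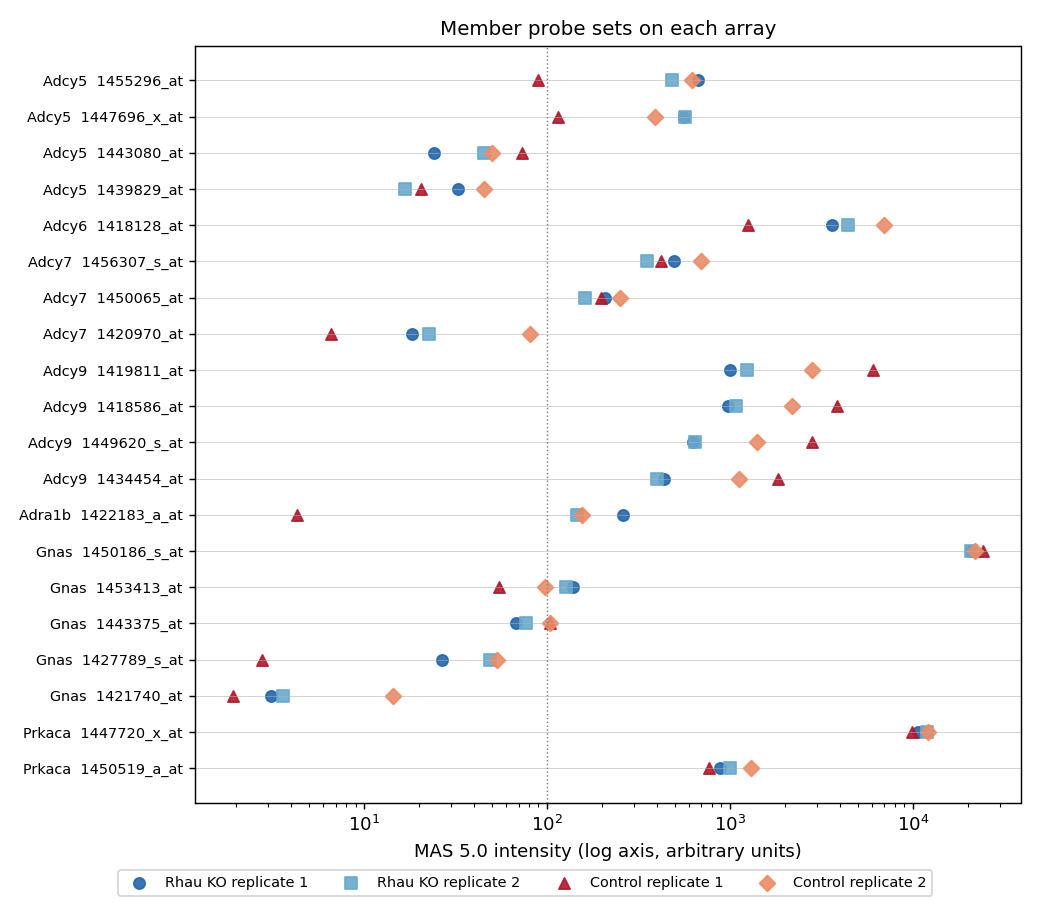
Each row is 1 of the 20 member probe sets and each point 1 array, with the MAS 5.0 intensity on a log axis in arbitrary units. Circles and squares are the arrays labelled Rhau KO, triangles and diamonds those labelled Control, and the dotted line marks 100. The 4 Adcy9 rows show both Rhau KO arrays left of both Control arrays, and on Adra1b, Adcy6 and the upper 2 Adcy5 rows Control replicate 1 lies far left of the other 3.

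Adcy9 encodes a membrane adenylyl cyclase that is widely expressed and, unlike most of the family, is barely stimulated by forskolin. On 1419811_at, its brightest probe set, it read 1008 and 1234 on the Rhau KO arrays and 6076 and 2814 on the Control arrays. The groups did not overlap, and the Rhau KO pair lay closer together than the Control pair, whose readings differed 2.16-fold. The means were 1121 ± 160 on Rhau KO and 4445 ± 2307 on Control (SD, 2 arrays each), a log2 difference of -1.89 (SE 0.42, 95% interval from limma -2.97 to -0.81).

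The other probe sets of Adcy9 showed the same order of arrays by group. On 1418586_at the readings were 981 and 1087 on Rhau KO against 3852 and 2180 on Control. On 1449620_s_at they were 629 and 642 against 2804 and 1399. On 1434454_at they were 439 and 399 against 1840 and 1118. Control replicate 1 was the highest array on each of the 4, and both Rhau KO arrays lay under both Control arrays each time. The log2 differences were -1.49 (SE 0.33) on 1418586_at, -1.64 (SE 0.38) on 1449620_s_at and -1.78 (SE 0.32) on 1434454_at, and all 4 probe sets had p under 0.05 in limma before adjustment. Probe sets of 1 gene are not separate measurements of the animals, so they count as 1 gene.

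Both Rhau KO arrays lay under both Control arrays on all 4 Adcy9 probe sets, so leaving out 1 array could not turn the direction. The Control array with skeletal muscle transcripts raised the size of the difference. With that array left out, the log2 differences were -1.34 on 1419811_at (SE 0.16, 2.52-fold), -1.08 on 1418586_at (SE 0.14), -1.14 on 1449620_s_at (SE 0.15) and -1.42 on 1434454_at (SE 0.17). After Benjamini-Hochberg adjustment over all 45037 probe sets, limma gave these 4 an adjusted p of 0.0636, 0.0743, 0.0747 and 0.0643, and 0.892 with all arrays. The unadjusted limma call was less stable to the loss of a Rhau KO array. With Rhau KO replicate 1 left out it held for 1434454_at alone (log2 difference -1.85), and with Rhau KO replicate 2 left out for 1419811_at (-2.04) and 1434454_at (-1.71), while the sign stayed negative on all 4. The remaining Control array in the comparison without Control replicate 1 is the one with the high heat shock readings, whose part in the Adcy9 difference was not tested.

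Over the members, 4 of 20 probe sets were lower by at least 2-fold with p under 0.05 before adjustment, all of them Adcy9, beside 1.48% of all probe sets in that direction. Counted by the brightest probe set of each gene, this was 1 of 7 genes, beside 1.65% of all genes. None of the 20 was higher by that measure, beside 1.88%. No member had an adjusted p under 0.05 in limma, beside 0.0% of all probe sets, and 4 had an unadjusted p under 0.05, beside 4.2%. The methods' t-test likewise left 0 members after adjustment and 2 before it, which were Adcy9 on 1434454_at and Gnas on 1443375_at, so that 3 of the 4 Adcy9 probe sets lost p under 0.05 with that test. Without Control replicate 1 the same 4 Adcy9 probe sets were lower by both thresholds, beside 1.36% of all probe sets, and 0 members were higher, beside 3.28%. That comparison gave 8 members p under 0.05 before adjustment, beside 10.9%, and 0 after it, beside 0.293%. Without Control replicate 2, which leaves the array with skeletal muscle transcripts as the only Control, 10 members were past both thresholds, beside 15.6%, and 8 had an adjusted p under 0.05, beside 14.0%. The Rhau KO arrays both lay below both Control arrays on 7 of 20 probe sets, beside 14.0% of all, and above them on 2, beside 21.4%.

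**Figure D2:**
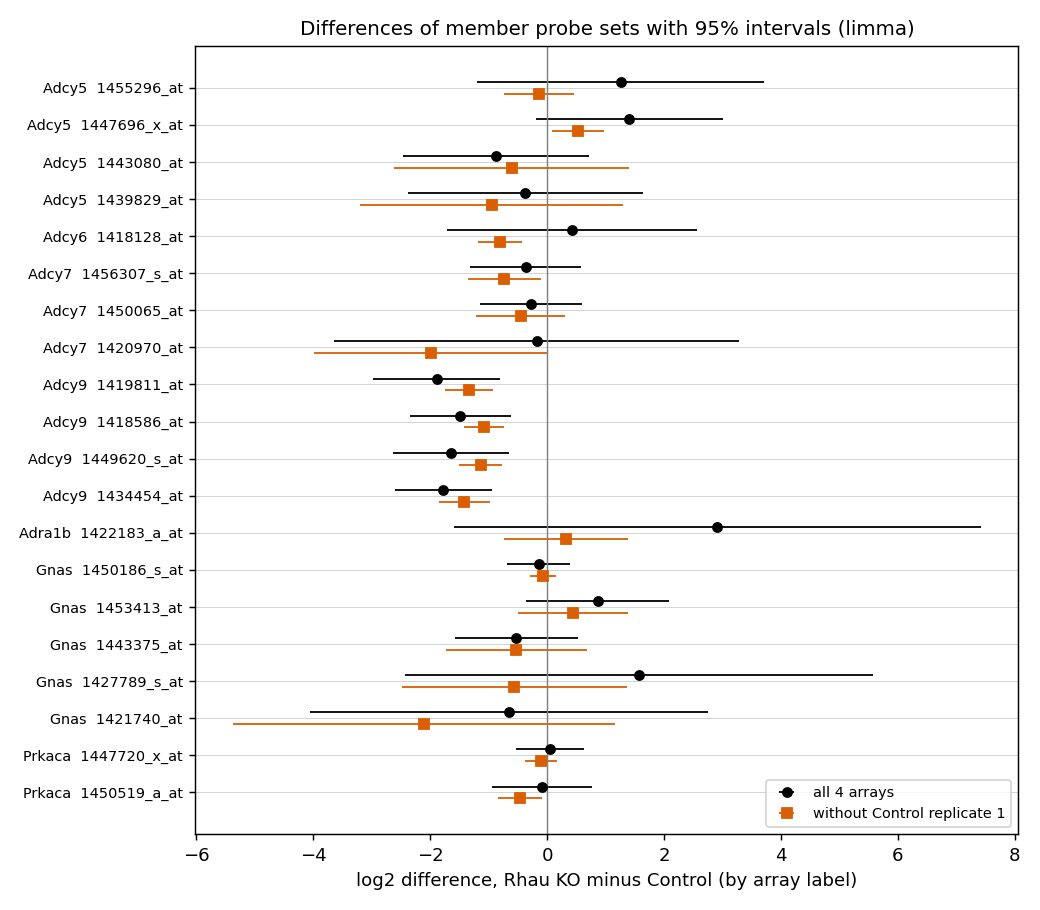
Each row is 1 member probe set, and the horizontal axis is the log2 intensity on Rhau KO minus that on Control. Black circles show the difference with all arrays and orange squares that without Control replicate 1, each with its 95% interval from limma. The Adcy9 intervals lie below 0, from -2.97 to -0.81 on 1419811_at, while the Adra1b interval runs from -1.60 to 7.42.

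Adcy5 and Adcy6 encode the closely related cyclases that calcium and the inhibitory G protein restrain, and they are regarded as the main forms of the heart muscle cell. On 1455296_at Adcy5 read 667 and 481 on Rhau KO and 89.4 and 623 on Control. Control replicate 1 alone was low, and Control replicate 2 lay between the Rhau KO arrays. The log2 difference was 1.26 (SE 0.95, 95% interval -1.19 to 3.72) with all arrays and -0.14 (SE 0.24, 95% interval -0.74 to 0.46) without Control replicate 1, so its sign turned.

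A second Adcy5 probe set, 1447696_x_at, read 563 and 566 on Rhau KO against 116 and 391 on Control. Here both Rhau KO arrays lay above both Control arrays. The log2 difference was 1.41 (SE 0.62, 95% interval -0.20 to 3.01), and 0.53 (SE 0.18, adjusted p = 0.377) without Control replicate 1. The remaining pair of Adcy5 probe sets, 1443080_at and 1439829_at, read between 16.8 and 73.5 on every array. Their differences were -0.88 and -0.38, and -0.60 and -0.95 without Control replicate 1. The probe sets of Adcy5 thus disagreed in sign, both with all arrays and without Control replicate 1.

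Adcy6 had 1 probe set, 1418128_at, which read 3602 and 4448 on Rhau KO and 1256 and 6997 on Control. The Control arrays enclosed the Rhau KO arrays, with replicate 1 lowest and replicate 2 highest of all 4, and they differed 5.57-fold. The log2 difference of 0.43 (SE 0.82, 95% interval -1.71 to 2.57) became -0.81 (SE 0.15, adjusted p = 0.167) without Control replicate 1 and 1.67 without Control replicate 2. The direction for Adcy6 therefore rested on which Control array was used. Low ventricular marker readings and the low Adcy6 reading fell on the same array, Control replicate 1, and the part of the former in the latter was not tested.

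Adcy7 encodes a cyclase that G protein beta-gamma subunits enhance and that is best known from blood and immune cells. On 1456307_s_at it read 493 and 353 on Rhau KO and 418 and 695 on Control. On 1450065_at it read 209 and 162 against 196 and 252. Control replicate 2 was highest on both, and the groups overlapped. The log2 differences were -0.37 (SE 0.37) and -0.28 (SE 0.34), and without Control replicate 1 they were -0.74 (SE 0.25, adjusted p = 0.385) and -0.46. The dimmest Adcy7 probe set, 1420970_at, read 18.4 and 22.8 on Rhau KO against 6.57 and 81.3 on Control. Its difference of -0.18 was -1.99 without Control replicate 1 and turned to 1.64 without Control replicate 2. Among 7 macrophage markers the summed intensity was 6238 on Control replicate 1 and 13728 to 14160 on the other arrays, and its part in the Adcy7 readings was not tested.

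Adra1b encodes the alpha1B receptor and was the only receptor among them with a reading. Its probe set 1422183_a_at read 260 and 146 on Rhau KO and 4.30 and 155 on Control. Control replicate 1 was far under the other 3 arrays, while Control replicate 2 lay between the Rhau KO arrays. The log2 difference of 2.91 had an SE of 1.74 and a 95% interval of -1.60 to 7.42, and it was 1.47 with 32 added to every intensity, so its size depends on that low reading. It was 0.33 (SE 0.43, 95% interval -0.74 to 1.39) without Control replicate 1 and 5.50 without Control replicate 2, so its size came from the array with skeletal muscle transcripts. Of the other adrenergic receptor genes, only Adra2c, which encodes an alpha2 receptor that restrains norepinephrine release from nerve endings, had a probe set among the 6 listed. It read 52.8 and 89.4 on Rhau KO against 43.4 and 19.8 on Control, under 100 on every array. The log2 difference was 1.23 (SE 0.67), and 1.79 without Control replicate 1.

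Gnas encodes the stimulatory G protein alpha subunit at a complex imprinted locus that also gives rise to other transcripts. Its bright probe set 1450186_s_at read 20678 and 20753 on Rhau KO and 24187 and 21766 on Control. Both Rhau KO arrays lay below both Control arrays, but by little, with a log2 difference of -0.15 (SE 0.21, 95% interval -0.69 to 0.40) and -0.07 without Control replicate 1. On 1453413_at the order was the opposite, with 140 and 127 on Rhau KO above 54.6 and 97.9 on Control. The log2 difference was 0.86 (SE 0.47), and 0.44 without Control replicate 1. On 1443375_at, 67.4 and 76.8 on Rhau KO lay below 104 and 104 on Control. The log2 difference was -0.53 with and without Control replicate 1. The last pair, 1427789_s_at and 1421740_at, read between 1.92 and 53.6 on every array, and the groups overlapped on both. The 5 Gnas probe sets thus held 3 lower and 2 higher means.

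Prkaca encodes the main catalytic subunit of protein kinase A. On 1447720_x_at it read 10656 and 11977 on Rhau KO and 9889 and 12088 on Control. On 1450519_a_at it read 880 and 1007 against 765 and 1300. The Control arrays enclosed the Rhau KO arrays on both, with replicate 1 lowest and replicate 2 highest. The log2 differences were 0.05 (SE 0.22, 95% interval -0.53 to 0.63) and -0.08 (SE 0.33, 95% interval -0.94 to 0.77). Without Control replicate 1 they were -0.10 (SE 0.11) and -0.47 (SE 0.15, adjusted p = 0.372).

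Much of the variation among the members lay between the Control arrays. Control replicate 1 was the lowest of the 4 arrays on 10 of the 20 probe sets, beside 37.5% of all probe sets, and the highest on 6, beside 28.6%. Control replicate 2 was the highest on 10 of 20, beside 23.1%, and the lowest on none, beside 25.2%. With all arrays 7 of 20 members had a higher mean on Rhau KO, beside 56.6% of all probe sets, and without Control replicate 1 this was 3 of 20, beside 52.8%. Of the 20, 5 read under 100 on every array, beside 45.5%. The median log2 difference of the members was -0.23, against 0.09 over all probe sets, and -0.58 against 0.03 without Control replicate 1. Apart from Adcy9, 11 of 16 member probe sets had overlapping groups and 5 did not. Over all probe sets, both Rhau KO arrays lay below both Control arrays on 14.0% and above them on 21.4%. The median difference of these 16 was -0.12, or -0.50 without Control replicate 1. Several genes gave more than 1 probe set, so these shares describe readings and not independent genes.

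The genes whose 4 readings followed those of Adcy9 most closely were Egln2, Pdzrn3 and Cnksr1. Likeness was the root mean square difference between log2 values, each centred on its own mean over the 4 arrays, taken over the 11107 brighter genes, those with 1 symbol and a mean above the median probe set. Egln2, which encodes an oxygen-sensing prolyl hydroxylase, differed by 0.09 and read 971 and 1057 on Rhau KO against 4881 and 2507 on Control. Pdzrn3, a ubiquitin ligase gene, differed by 0.13 and read 1478 and 1674 against 9639 and 3474. Cnksr1, a scaffold gene of the Ras pathway, differed by 0.16 and read 180 and 285 against 1330 and 510. Their order of arrays follows from the way they were chosen.

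**Figure D3:**
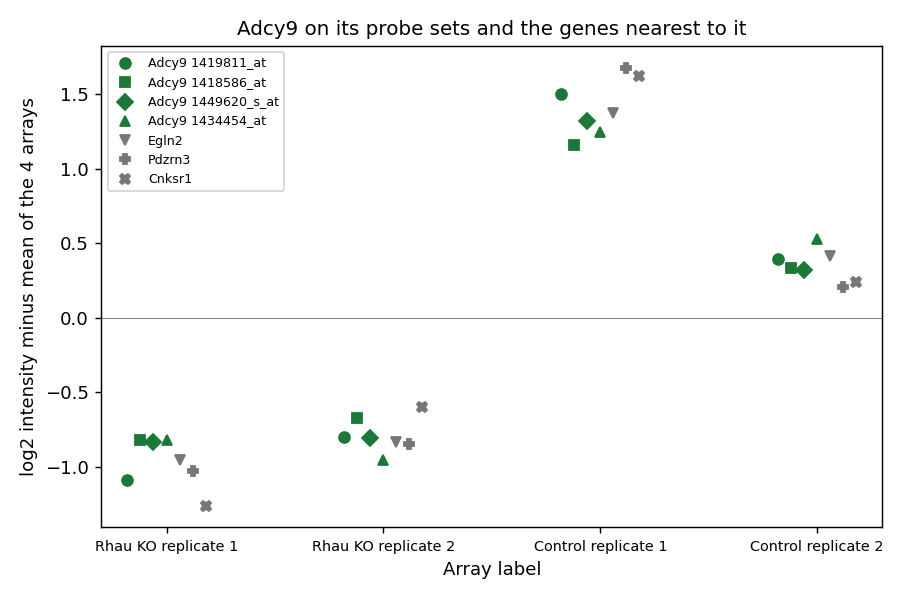
The horizontal axis lists the 4 arrays by label, and the vertical axis is the log2 intensity minus the gene's own mean over the 4 arrays. Green marks are the 4 Adcy9 probe sets and grey marks the 3 genes nearest to 1419811_at. Every mark lies below 0 on both Rhau KO arrays and above 0 on both Control arrays, and Adcy9 on 1419811_at lies at -1.09 and -0.80 on the Rhau KO arrays.

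The other genes of adrenergic and cAMP signaling were read from 11 lists by role, each gene on its brightest probe set. Of 130 genes listed, 115 were measured, and 69 of these had a higher mean on Rhau KO, beside 56.9% of all genes. Both thresholds were met by 2 genes that were higher and 3 that were lower on Rhau KO, beside 1.74% and 1.65% of all genes. The median log2 difference was 0.15, against 0.09 over all genes, and -0.05 against 0.03 without Control replicate 1. Under that comparison 4 genes were higher and 2 lower, beside 2.86% and 1.56%, and 3 genes met the thresholds both ways. Kcne1, Ppp1r1a and Adcy8 are counted here on readings under 100 in at least 1 group.

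Among the other cyclases, none of the 6 met both thresholds with all arrays. Adcy1, a calcium-stimulated cyclase, read 248 and 364 on Rhau KO against 157 and 207 on Control (log2 difference 0.74). Adcy3, known from olfactory signaling, read 402 and 422 against 174 and 419 (0.61). Adcy4, an endothelial and smooth muscle form, read 342 and 395 against 238 and 444 (0.18). Without Control replicate 1 the differences were 0.54 for Adcy1, -0.03 for Adcy3 and -0.27 for Adcy4. Adcy2 stood out on Control replicate 1, at 1464 there against 150 to 183 on the other arrays, and its difference went from -1.63 to -0.12 without that array. Adcy8 read under 100 on all arrays, at 35.4 and 49.0 on Rhau KO against 28.0 and 4.20 on Control, so that its call by both thresholds without Control replicate 1 rests on 1 low Control reading. Adcy10, the soluble cyclase, also read under 100 throughout (-0.51).

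Among the genes that act on cAMP and its kinase, few met both thresholds. Pde7b, a phosphodiesterase that breaks down cAMP, read 1228 and 1309 on Rhau KO against 3514 and 2317 on Control, a log2 difference of -1.17 (SE 0.28) and -0.87 without Control replicate 1. It was the only 1 of 16 phosphodiesterases to meet both with all arrays, while Pde4a, at 230 and 184 against 143 and 103, did so only without Control replicate 1 (adjusted p = 0.377). Of the 8 subunits and inhibitors of protein kinase A, 6 had a higher mean on Rhau KO, beside 56.9% of all genes. Of these 6, Prkar2b read under 100 on every array, with a log2 difference of 0.007, and Pkib read under 100 on 3 arrays. Pkig, a kinase inhibitor, had the smallest p of the 8, at 11256 and 9498 against 4467 and 6099 (log2 difference 0.99, SE 0.25). Among 11 anchoring proteins, Akap7 had the smallest p, at 855 and 845 against 370 and 526 (log2 difference 0.95, SE 0.28). Popdc3, a cAMP-binding membrane protein of muscle, read 2058 and 2496 against 3932 and 3471 (log2 difference -0.71, SE 0.22). Without Control replicate 1 the differences of Pkig, Akap7 and Popdc3 were 0.762, 0.691 and -0.615.

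Of 22 targets and phosphatases of the kinase, 1 was higher and 1 lower by both thresholds. Kcne1, the regulatory subunit of a slow potassium channel, read 483 and 898 on Rhau KO against 1.29 and 14.3 on Control. Both of its Control readings were low enough that no size is given for the difference. It met both thresholds with all arrays and without Control replicate 1. Ppp1r1a, an inhibitor of protein phosphatase 1 that the kinase activates, read 13.1 and 14.6 on Rhau KO against 1962 and 67.3 on Control. It read highest on Control replicate 1, and its reading on Control replicate 2 also lay above both Rhau KO readings. Since the 3 readings other than that of Control replicate 1 were under 100, no size is given for the difference.

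On the branch of the alpha1 receptor, Rgs2 and Prkca met both thresholds in opposite directions. Rgs2, which shortens signaling by Gq, read 2780 and 2646 on Rhau KO against 458 and 917 on Control, a log2 difference of 2.07 and 1.56 without Control replicate 1 (adjusted p = 0.0260). Prkca, a protein kinase C gene, read 490 and 476 against 2340 and 836, a difference of -1.53 (SE 0.52) that came to -0.79 without Control replicate 1. Of 17 G protein subunits none met both thresholds with all arrays. Gna12 did so without Control replicate 1, at 1817 and 1610 on Rhau KO against 3857 on Control replicate 2 (-1.17, adjusted p = 0.0505), but it read 643 on Control replicate 1, so the Control arrays enclosed the Rhau KO arrays as they did for Adcy6. Gnb5 had the smallest p of its list with all arrays (log2 difference 0.57, SE 0.30, and 0.25 without Control replicate 1). Among receptor kinases and arrestins the smallest p was that of Grk5, at 1607 and 2003 against 274 and 1223. The log2 difference of Grk5 was 1.63 (SE 0.73), and 0.55 without Control replicate 1.

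Genes of catecholamine synthesis and clearance had the lowest share of higher means, 2 of 8, beside 56.9% of all genes. Maob, which breaks down monoamines, was 1 of those, at 2812 and 2474 on Rhau KO against 1657 and 1792 on Control (log2 difference 0.61, SE 0.21). Among 5 autonomic nerve markers, 3 read over 2-fold higher on Control replicate 2 than on the mean log2 of the other 3 arrays. These were Th and Gap43, under 100 on every array, and Dbh, at 601 against 203 to 342. The summed intensity of the markers was 864 on Control replicate 2 against 384 to 528. The part of these markers in the differences above was not tested.

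**Figure D4:**
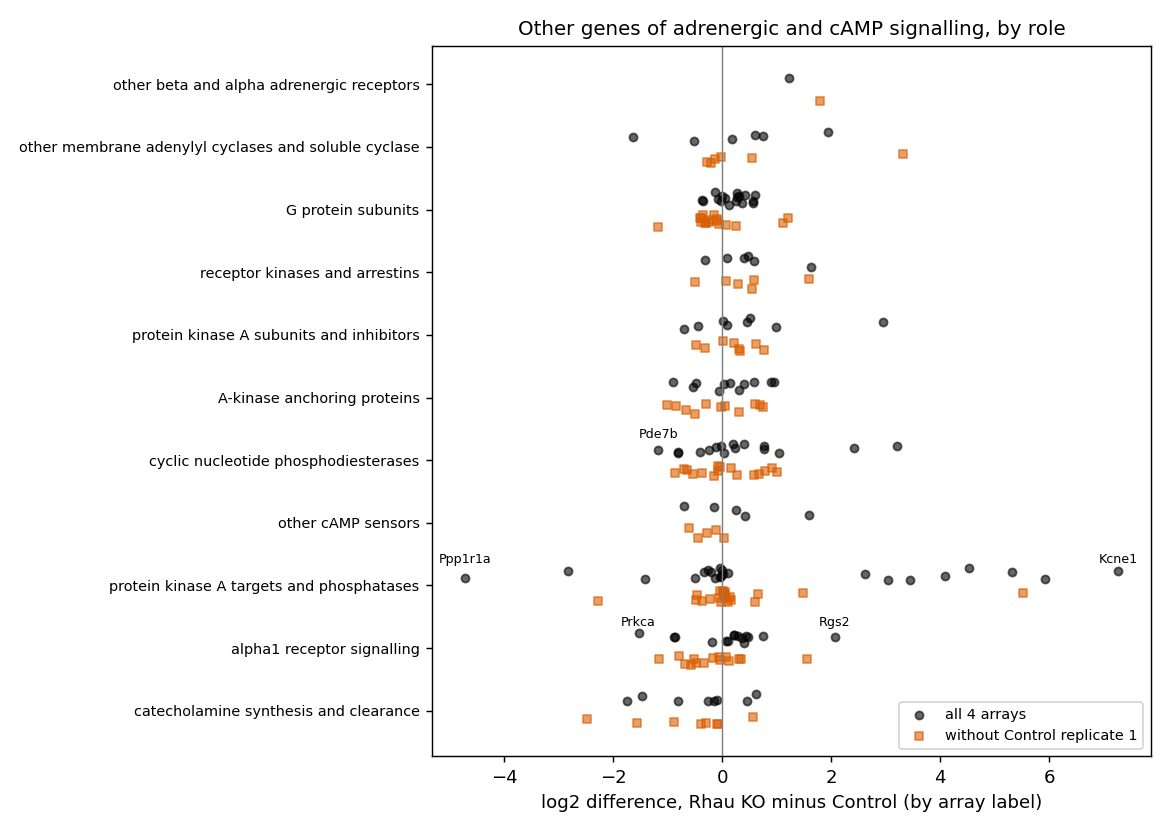
Each point is 1 measured gene of the 11 role lists, placed by its log2 intensity on Rhau KO minus that on Control, and each row is a role. Black circles use all arrays and orange squares leave out Control replicate 1. The black points spread to both sides of 0 in most rows, with a median of 0.15 over the 115 genes. Names mark the 5 genes past both thresholds with all arrays, among them Rgs2 at 2.07 and Prkca at -1.53.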

How the data were processed

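RNA from 4 mouse samples labelled as heart was hybridised to Affymetrix arrays. Per the labels and the study's methods, the authors scaled the scans with MAS 5.0, and the intensity values they deposited are linear, with a trimmed mean of 499.8 on each array. No detection calls, scan dates or genome build were used here, and readings under 100 made up 51.8% to 54.0% of an array. Of 45101 probe sets, 64 controls were left out. Log2 values of the other 45037 were fitted in R 4.3.3 with limma 3.58.1 (lmFit, then eBayes with an intensity trend). The Benjamini-Hochberg adjustment ran over the whole table. The thresholds were the study's for its arrays, 2-fold and p under 0.05 before adjustment. An exact permutation of 2 against 2 arrays cannot go below p = 0.333. Figures and counts were made in Python 3.11.15. The fit was tested on simulated data.

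Groups came from the sample labels. The members and the lists were chosen with earlier results of these data known. Text names every member, every other adrenergic receptor and cyclase measured, listed genes past both thresholds with all arrays or without Control replicate 1, the gene with the smallest p in each role, and the 3 genes most like Adcy9. Alternatives were no intensity trend, quantile normalization, median centring, a pseudocount of 32, only the probe sets above the median level, each gene's brightest probe set or its mean, the methods' t-test, the replicate block and each array left out in turn.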

Additional observations from a re-analysis of the deposited data

How the results depend on the processing

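All 46 values of the Adcy9 probe sets under 13 alternatives lay below 0, from -2.45 to -1.08, with adjusted p from 0.000800 to 0.99996. Of 228 member values under alternatives, 14 turned in sign, on 9 probe sets, and the causes were not tested. Some alternatives in both counts only repeat the difference found with all arrays, so their sign was fixed. These are no intensity trend, the probe sets above the median level, each gene's brightest probe set, the replicate block and the methods' t-test. On every Adcy9 probe set both Rhau KO arrays lay under both Control arrays. For Adcy9 the sign was therefore also fixed with any array left out, with the pseudocount and with its probe sets averaged. Only quantile normalization and median centring could have turned the Adcy9 sign, and neither did. Leaving out each array in turn moved the log2 difference between -0.14 and 2.66 for Adcy5 on 1455296_at, between -0.95 and 0.20 on 1439829_at, between -0.81 and 1.67 for Adcy6, between -1.99 and 1.64 for Adcy7 on 1420970_at, between -0.56 and 3.71 for Gnas on 1427789_s_at, between -2.11 and 0.79 on 1421740_at, between -0.10 and 0.19 for Prkaca on 1447720_x_at and between -0.47 and 0.30 on 1450519_a_at. Averaging a gene's probe sets gave 0.22 for Gnas and -0.018 for Prkaca. Median centring, which lowered every difference by about 0.12, gave -0.077 for Prkaca on 1447720_x_at. Member probe sets past both thresholds, 4 with all arrays, numbered 1 (without Rhau KO replicate 1) to 10 (without Control replicate 2), and 1 with the methods' t-test. Counted by gene, as brightest probe set or as mean, 1 of 7 passed and 4 of 7 were higher. Members with an adjusted p under 0.05 numbered 0 to 8, and those with a higher mean 3 (without Control replicate 1) to 11 (without Control replicate 2), beside 7 with all arrays. Listed pathway genes past both thresholds, 5 of 115 with all arrays, numbered 2 (without Rhau KO replicate 1) to 41 (without Control replicate 2), 3 with no intensity trend, 3 of 98 among the brighter probe sets, 15 of 309 probe sets taken singly, and 0 with the methods' t-test. The count of 41 rests on the array with skeletal muscle transcripts as the only Control, and calls then rose over the whole table. Same-numbered samples deviated together with a correlation of 0.0029. This cannot show whether they were paired, since the Control deviations hold the skeletal muscle transcripts of replicate 1. With the replicate block, 10 listed pathway genes and 5 member probe sets were past both thresholds, the fifth being Adcy5 on 1447696_x_at at a log2 difference of 1.41. The share of all probe sets called with the block was not counted, so the rise is not read as particular to these genes.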
